A study of Mus musculus with 3 samples.

Results

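The genes examined were Nptx1, Cnr1, Gria4 and Arpp21, 4 genes of synaptic receptors, channels and signalling that had a PHF10 ChIP-seq peak at a transcription start site (TSS) in mouse brain. They were chosen from the peaks themselves, as genes with a peak of either replicate within 500 bp of any TSS annotated in GENCODE M21, so the presence of a peak is not a result. They hold 6 of the 392 deposited peaks, and 298 of 21924 protein-coding genes met the same criterion. PHF10 is a subunit of PBAF, a SWI/SNF chromatin-remodelling complex, and the study asked at which genes it sits in differentiated neurons.

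Chromatin came from C57BL/6 mice (male C57BL/6J in the methods) at postnatal day 120, from 1 brain for each immunoprecipitation, with no treatment, transgene or second genotype. The PHF10 libraries, replicates 1 and 2, were made with a non-commercial rabbit antibody that recognises all PHF10 isoforms, and 1 control library was titled IgG and described as pre-immune, with rabbit IgG from Invitrogen given as its antibody. It is called IgG here. The labels and the methods name brain, whereas the series description names cerebellum at a younger age (P65, with 56 days in brackets), and the names of the deposited peaks carry the letters Cer. The brain region behind the values is therefore not settled by the sources. Whole tissue mixes neurons with glia, and a low level of PHF10 in many cells cannot be told apart from a high level in few. Of the marker lists looked up for the tissue, a peak lay at 3 of 8 cerebellar genes (Zic1, Zic4 and Neurod1, each in both replicates), 0 of 8 forebrain genes, 1 of 6 neuronal genes (Rbfox3, in both replicates) and 0 of 6 genes each of astrocytes, oligodendrocytes and microglia. Over all protein-coding genes the share with a peak was 1.36% in either replicate and 0.379% in both, so lists of this length would mostly hold none and the zeros say nothing about the cells.

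Excitatory synapses signal through ionotropic glutamate receptors, of which the AMPA type carries the fast current. Gria4 encodes GluA4, a pore-forming AMPA receptor subunit, and Nptx1 encodes neuronal pentraxin 1, a secreted protein that gathers AMPA receptors at synapses. Cnr1 encodes the CB1 cannabinoid receptor, a G protein-coupled receptor that lowers transmitter release from presynaptic terminals. Arpp21 encodes a cAMP-regulated phosphoprotein with RNA-binding domains that is abundant in neurons, among them those of the striatum.

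The 2 lists differ in depth. Replicate 1 had 251 peaks and replicate 2 had 141, and they had 1.38 and 1.14 times the depth of the IgG library. The fold enrichment of MACS2 divides the PHF10 fragments over a summit, brought to IgG depth, by the IgG background used there, local or genome-wide. Because 1 is first added to numerator and denominator, the fold understates the plain ratio. Both replicates were set against the same IgG library. These depths and the fragments per summit were solved from the deposited folds and p values, and the fragments came out whole to within 0.013, with a median of 22 in replicate 1 and 20 in replicate 2. A second whole number also met the equations at 3 of the 392 peaks, none of them at the 4 genes. At Nptx1 in replicate 1 and at Arpp21 the second solutions, 27.4 and 19.2 fragments, were not whole and were set aside. Intervals on these numbers are exact 95% Poisson intervals and cover counting error only.

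All 4 genes had a peak in replicate 1, and 2 of them, Nptx1 and Cnr1, also had one in replicate 2. Beside the 1.36% and 0.379% of all protein-coding genes, 27.9% of those with a peak had it in both replicates. Gria4 and Arpp21 therefore rest on 1 list each. At every gene the peak lay next to a TSS, and the farthest from one was the replicate 2 peak of Cnr1, which began 7 bp downstream. The nearest promoter of these genes left outside the 500 bp limit was the upstream promoter of Gria4, 593 bp from the Gria4 peak.

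**Figure D1:**
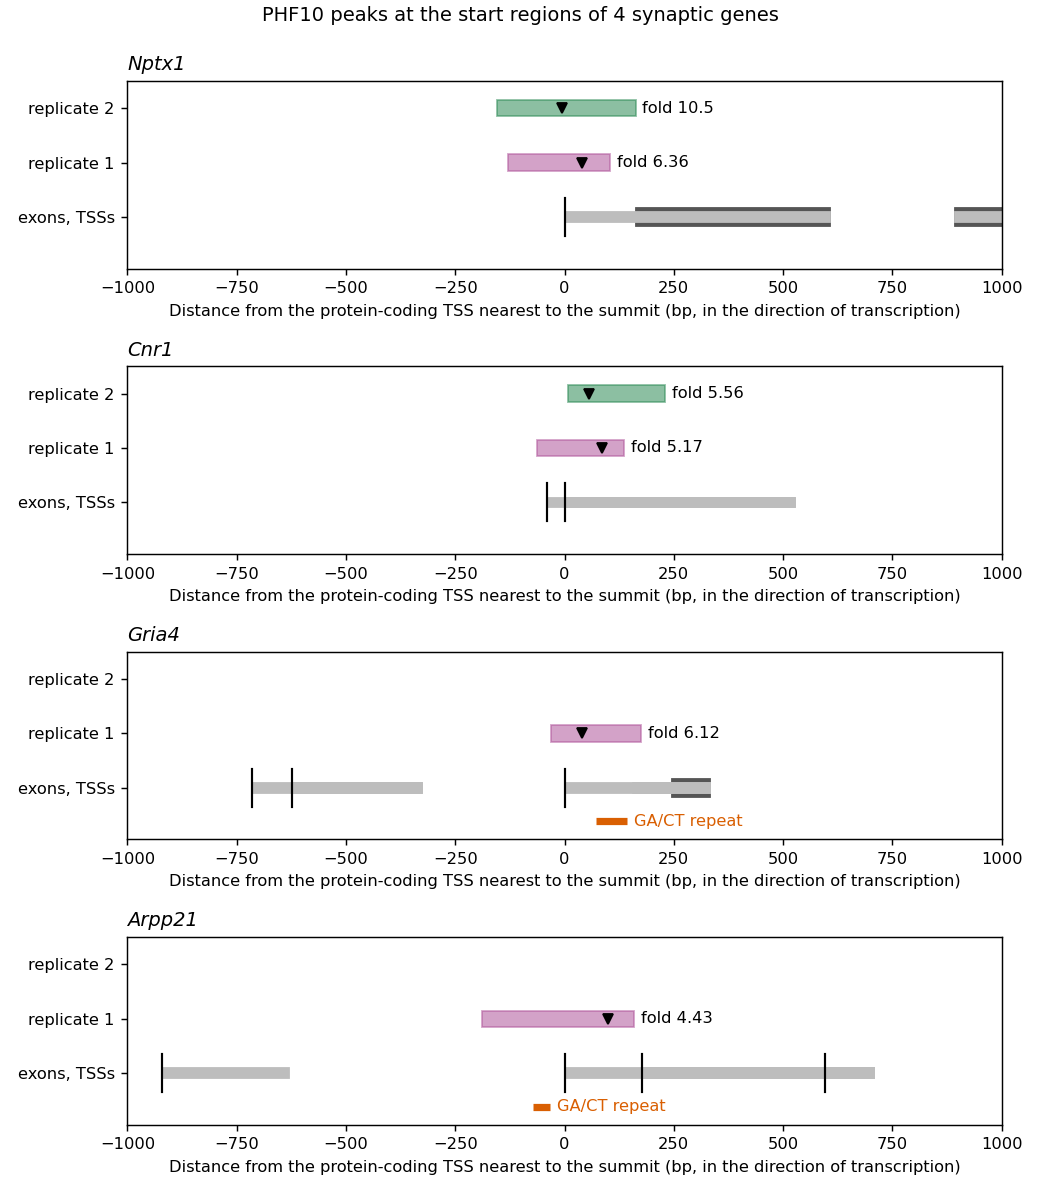
Each panel shows 1 gene, with the distance in bp from the protein-coding TSS nearest to the summit on the horizontal axis, in the direction of transcription. Coloured bars are the peaks of replicate 1 (purple) and replicate 2 (green) with the summit as a triangle and the fold beside it, grey bars are exons with coding parts edged in dark grey, vertical lines are TSSs, and orange bars are GA/CT repeats. Summits lie from 6 bp upstream to 100 bp downstream of these TSSs, and Gria4 and Arpp21 have no replicate 2 peak.

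Nptx1 had the highest fold of the 4 genes in replicate 1, though close to the 6.12 of Gria4, and the higher of the 2 folds in replicate 2. The gene (ENSMUSG00000025582.4, chr11:119538719-119547753 in mm10, minus strand) has 1 annotated transcript and 1 TSS, at position 119547753. In replicate 1 the peak was 234 bp wide (119547649 to 119547882), with a fold of 6.36, a −log10 p of 12.2 and a −log10 q of 6.64. In replicate 2 it was 318 bp wide (119547590 to 119547907), with a fold of 10.5, a −log10 p of 25.4 and a −log10 q of 19.0. The narrower peak lay wholly inside the wider one. The mean fold was 8.44 ± 2.95 (SD, n = 2).

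The Nptx1 summit of replicate 1 lay 39 bp downstream of the TSS, in the 5′ UTR. That of replicate 2 lay 6 bp upstream of the TSS, so the summits were 45 bp apart, on either side of the GENCODE start. Both summits lay downstream of the RefSeq TSS at 119547820, by 106 bp in replicate 1 and 61 bp in replicate 2. Neither peak reached the coding sequence, whose first base is at 119547589. In replicate 1 there were 25 fragments at the summit (95% interval 16.2 to 36.9), and in replicate 2 there were 35 (24.4 to 48.7), over an IgG background of 2.0 at both summits. Scaled to the IgG library these were 18.1 (11.7 to 26.7) and 30.6 (21.3 to 42.5). The higher value was that of replicate 2, and the intervals overlapped. Of the peaks in its own list, 69.7% had a lower fold than Nptx1 in replicate 1 and 95.7% in replicate 2, where it ranked 6 of 141.

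**Figure D2:**
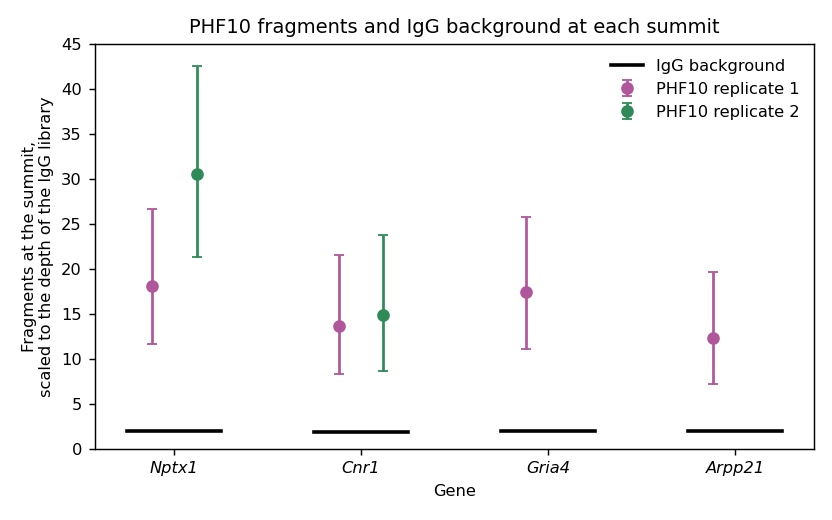
The vertical axis gives the number of PHF10 fragments at the summit, scaled to the depth of the IgG library, for each gene and replicate. Points are single libraries and bars are exact 95% Poisson intervals. Black lines are the IgG background used at the same summit, from 1.85 (the genome-wide level, at Cnr1) to 2.0 fragments. All points lie above the IgG background, which the choice of called peaks fixes, and the intervals of the 2 replicates overlap at Nptx1 and at Cnr1.

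Cnr1 had a low fold that was close between the replicates. The gene (ENSMUSG00000044288.6, chr4:33924593-33948831, plus strand) has 3 annotated transcripts that start at 2 promoters. The first promoter holds the TSSs at 33924593 and 33924632, and the second starts at 33926202. Both summits lay at the first promoter, downstream of the start of the protein-coding transcript Cnr1-201 at 33924632. They fell in its first exon, which is 5′ UTR, while the coding sequence of CB1 starts in a later exon, at 33943614. The second promoter had no peak, the nearest being 1433 bp away in replicate 1 and 1340 bp away in replicate 2.

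Of the E-box forms, only CACGTG was searched for. The start region of Cnr1 is shown because it holds the only match in the promoter windows of Cnr1, Gria4 and Arpp21. It is read 5′ to 3′ on the plus strand at chr4:33924512-33924661 (GRCm38, mm10), and capitals mark the E-box and the TSS base at 33924632.
Cnr1: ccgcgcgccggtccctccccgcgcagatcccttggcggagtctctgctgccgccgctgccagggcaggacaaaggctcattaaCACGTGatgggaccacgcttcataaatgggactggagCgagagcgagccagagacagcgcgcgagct

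In replicate 1 the Cnr1 peak was 200 bp wide (33924570 to 33924769), with a summit 86 bp past the start, a fold of 5.17, a −log10 p of 7.95 and a −log10 q of 2.9. In replicate 2 it was 224 bp wide (33924639 to 33924862), with a summit 55 bp past the start, a fold of 5.56, a −log10 p of 8.86 and a −log10 q of 3.56. The peaks shared 131 bp and their summits were 31 bp apart. The mean fold was 5.37 ± 0.277 (SD, n = 2).

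The Cnr1 summits rested on 19 fragments in replicate 1 (11.4 to 29.7) and 17 in replicate 2 (9.9 to 27.2), over the genome-wide IgG background of 1.85. After scaling to the IgG library these were 13.7 (8.27 to 21.5) and 14.9 (8.65 to 23.8). Cnr1 thus stood low in both lists, with 26.3% of the peaks of replicate 1 and 27.0% of those of replicate 2 having a lower fold. The scaled intervals of Nptx1 and Cnr1 overlapped in both replicates, and the difference between the 2 genes was not tested.

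**Figure D3:**
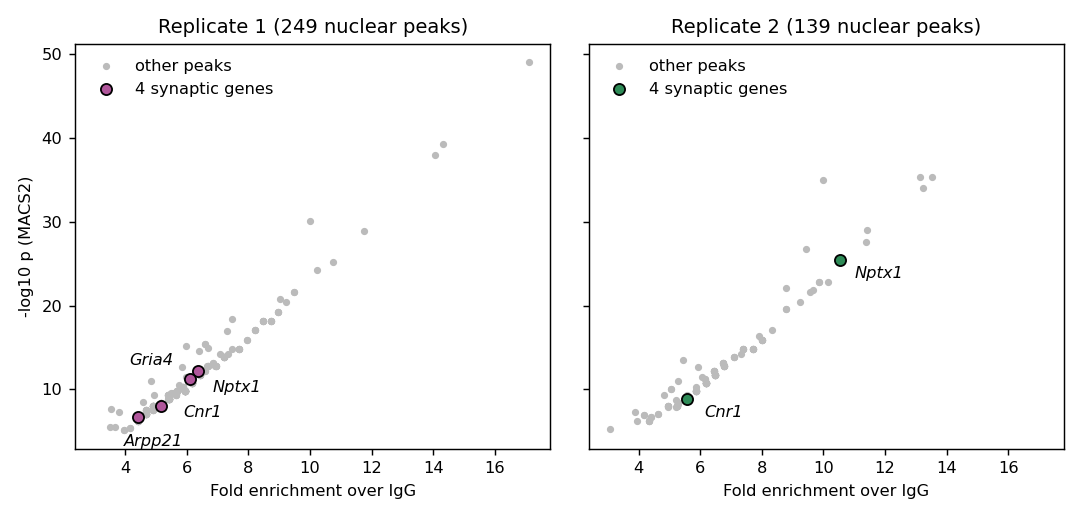
Each point is 1 nuclear peak, with its fold enrichment over IgG on the horizontal axis and the −log10 p of MACS2 on the vertical axis, for replicate 1 (left) and replicate 2 (right). Coloured points are the peaks of the 4 genes and grey points all others. Nptx1 is at a fold of 6.36 on the left and 10.5 on the right, where it ranks 6 of 141, whereas Cnr1 lies in the lower part of both lists.

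Gria4 had a peak at an internal promoter. The gene (ENSMUSG00000025892.16, chr9:4417896-4796234, minus strand) has 4 annotated transcripts and 2 promoters. The upstream one holds the TSSs of 3 transcripts, at 4796142 and 4796234, and the downstream one the TSS of the protein-coding transcript Gria4-204, at 4795519. The summit lay 41 bp downstream of the Gria4-204 start, in the 5′ UTR of its first exon and 204 bp before the first coding base at 4795274. RefSeq starts Gria4 only further upstream, with the nearest RefSeq TSS at 4796143, and the peak lay 594 bp from it and its summit 665 bp downstream.

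In replicate 1 the Gria4 peak was 207 bp wide (4795343 to 4795549), with a fold of 6.12, a −log10 p of 11.2 and a −log10 q of 5.74. Its summit held 24 fragments (15.4 to 35.7) over an IgG background of 2.0, or 17.4 (11.1 to 25.8) after scaling, close to the 18.1 of Nptx1 in the same library. The nearest peak of replicate 2 was 17255512 bp from a Gria4 promoter. At the depth of replicate 2, the 24 fragments correspond to 19.9 (12.7 to 29.6), and the fewest at a listed summit of replicate 2 with the same IgG background was 14. That summit had a −log10 p of 6.68, and other peaks of replicate 2 were listed down to 5.27. The 14 fragments are thus the fewest seen and not the calling limit. No coverage was used where no peak was listed, so whether PHF10 was lower at Gria4 in replicate 2 was not tested.

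The bases around the Gria4-204 start are shown because the summit lies beside them and because this promoter differs in composition from those of Nptx1 and Cnr1. The first sequence is chr9:4795490-4795639 on the minus strand, with the TSS base at 4795519 in capitals. The second is chr9:4795375-4795404 on the same strand, the end of a CT repeat that runs over 73 bp (4795375 to 4795447), with the repeat in capitals.
Gria4 start: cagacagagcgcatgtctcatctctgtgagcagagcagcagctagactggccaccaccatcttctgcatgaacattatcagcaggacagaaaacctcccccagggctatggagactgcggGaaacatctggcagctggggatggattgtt
Gria4 repeat: CTCTCTCTCTCTCTCTCTCTCTCTCTCTCT
The repeat lay inside the peak, 31 bp from the summit and in the 5′ UTR.

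Arpp21 had the lowest fold of the 4 genes and the widest of the 6 peaks. The gene (ENSMUSG00000032503.18, chr9:112065091-112235938, minus strand) has 31 annotated transcripts with 26 TSSs, which fall into 8 promoters when TSSs no more than 500 bp apart are joined. The summit lay at the second promoter counted from the 5′ end, which holds the TSSs at 112235018, 112234841 and 112234423. It was 100 bp downstream of the protein-coding start at 112235018 (Arpp21-204 and Arpp21-223) and 77 bp upstream of the start of Arpp21-211, a retained-intron transcript. The RefSeq TSS nearest to the summit was also at 112234841, the start of Arpp21-211. The first promoter was 732 bp from the peak and the third 986 bp, and the other 5 were between 2357 and 48765 bp away. A lincRNA, 2900079G21Rik, also starts 477 bp from the Arpp21 peak, which was the only other gene with a TSS within 500 bp of a peak of the 4 genes.

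In replicate 1 the Arpp21 peak was 349 bp wide (112234858 to 112235206), with a fold of 4.43, a −log10 p of 6.68 and a −log10 q of 1.95. Its summit held 17 fragments (9.9 to 27.2) over an IgG background of 2.0, or 12.3 (7.16 to 19.7) after scaling. Only 7.17% of the peaks of replicate 1 had a lower fold. The nearest peak of replicate 2 was 5937814 bp from an Arpp21 promoter. At the depth of replicate 2 the 17 fragments correspond to 14.1 (8.2 to 22.5). The weakest listed peak of replicate 2 with the same IgG background had 14 fragments, which is not the calling limit. Whether PHF10 was lower at Arpp21 in replicate 2 was not tested.

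The upstream part of the Arpp21 peak is shown because it holds a GA repeat of 40 bp (112235051 to 112235090), which ends upstream of the protein-coding TSS. It is read on the minus strand at chr9:112234989-112235206 (GRCm38, mm10), with the repeat and the TSS base at 112235018 in capitals.
Arpp21: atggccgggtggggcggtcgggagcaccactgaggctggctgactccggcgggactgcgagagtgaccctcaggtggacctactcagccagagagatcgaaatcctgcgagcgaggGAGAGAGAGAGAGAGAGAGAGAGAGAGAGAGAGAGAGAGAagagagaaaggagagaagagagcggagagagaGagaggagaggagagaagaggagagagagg
The summit lay 133 bp from this repeat, on its downstream side.

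The 4 start regions differed in base composition. The merged peak regions of Nptx1 and Cnr1 had GC contents of 75.5% and 72.0% and observed to expected CpG ratios of 1.04 and 0.879, and their longest GA or CT runs were 4 and 5 bp. Gria4 had a GC content of 48.8% with a CpG ratio of 0.191, and Arpp21 had 62.5% with 0.543. Of all 303 regions with a peak in either replicate, mitochondrial ones included, 92.1% had a lower GC content than Nptx1 and 80.2% than Cnr1. The shares were 31.4% for Arpp21 and 6.6% for Gria4. Repeat masking covered 44.0% of the Gria4 region and 49.0% of the Arpp21 region, 6.48% of that of Cnr1 and 0% of that of Nptx1.

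**Figure D4:**
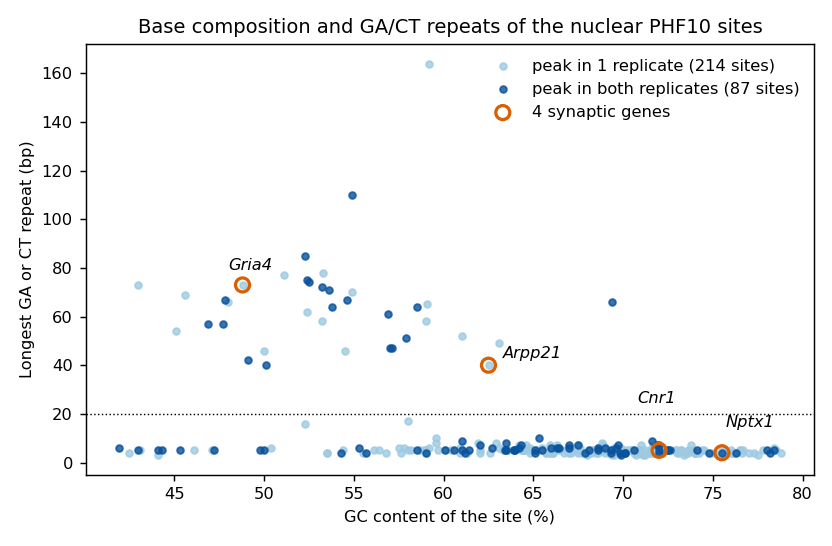
Each point is 1 of the 301 nuclear PHF10 regions, with its GC content in percent on the horizontal axis and its longest GA or CT repeat in bp on the vertical axis. Dark points had a peak in both replicates and light points in 1, orange rings mark the 4 genes, and the dotted line is at 20 bp. Gria4 and Arpp21 lie above the line at 73 and 40 bp, and Nptx1 and Cnr1 lie below it at the GC-rich end.

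Each of the 100-bp stretches in and around the 4 regions (from 306 at Gria4 to 448 at Arpp21) occurred only once, as an exact match, in the GRCm38 chromosomes. Shorter trimmed reads and matches with mismatches were not examined, so the placement of the reads over the repeats was not tested. In the RefSeq promoter windows (GRCm38.p6, 250 bp before to 50 bp after the start), Cnr1, Gria4 and Arpp21 were matched, 3 of the 4 genes. For these 3 genes, windows of the same length at the protein-coding TSS nearest to the summit held 1 CACGTG at Cnr1, which 7.15% of all 32851 RefSeq windows hold on either strand. The windows also held 1 GC box, GGGCGG, at Gria4 and 1 at Arpp21, which 35.7% of all windows hold. TATAAA (13.6% of all windows), CCAAT (37.4%) the cAMP response element TGACGTCA (1.79%) and its overlapping half-site TGACG (20.8%) were not among the letters of the Cnr1, Gria4 and Arpp21 windows.

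Other genes of the same pathways were looked up in lists made by function, with the 4 genes included. A peak lay at 1 of 18 ionotropic glutamate receptor genes (Gria4), 0 of 8 metabotropic glutamate receptor genes, 1 of 15 genes of AMPA receptor auxiliary and clustering proteins (Nptx1) and 2 of 10 endocannabinoid genes (Cnr1 and Daglb). A peak also lay at 1 of 15 GABA receptor genes (Gabbr1) and 1 of 23 genes of cAMP and calcium-calmodulin signalling (Arpp21). Beside these counts, 1.36% of all protein-coding genes had a peak, and with the 4 chosen genes set aside only Daglb and Gabbr1 remain from these lists.

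Daglb and Gabbr1 each had a peak in replicate 1 alone, with folds a little above the 5.17 of Cnr1 in that replicate. Daglb encodes a diacylglycerol lipase that makes the endocannabinoid 2-AG, and its peak (chr5:143464391-143464613) had a fold of 5.43 and 20 fragments, with the summit 3 bp upstream of the TSS. Gabbr1 encodes a GABA-B receptor subunit, and its peak (chr17:37050425-37050783) had a fold of 5.4 and 21 fragments, with the summit 17 bp upstream.

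The promoters most like each gene were found by fold, among those with the same replicate support. For Nptx1 these were Nfia, Elavl3 and Cdk10 (mean log2 difference of 0.1, 0.1 and 0.13 over the 2 replicates, of 75 compared). For Cnr1 they were Neurod1 with Cerkl, Tmeff2, and Ccni with 2010109A12Rik (0.069, 0.073 and 0.084). For Gria4 (of 141 compared in replicate 1 alone) they were Kiss1r with R3hdm4, at the same fold of 6.12, followed by a tie at 6.19 that includes Nsrp1 and Arl4d (6 promoters were at least that near), and for Arpp21 they were Mink1, Ube2g1 and Rabgef1, each at its fold of 4.43.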

How the data were processed

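ChIP-seq of PHF10 was carried out by the authors on 2 brain chromatin samples, with 1 IgG control library. Per the methods, single-end reads of 100 bp were trimmed with Cutadapt, aligned to mm10 with Bowtie 1, kept where they aligned once and cleared of duplicates with Picard. Peaks were called in each replicate with MACS2 against the pre-immune control (the IgG library), with extension to 200 bp, and blacklisted regions were removed. The deposited values of each peak are a score (10 times −log10 p, rounded down), a fold enrichment over IgG, a −log10 p-value and a −log10 q-value, with summit and coordinates. The deposited files hold no read counts, so depth relative to IgG was derived from fold and p.

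All 392 peaks were used, and those sharing a base were merged into 303 regions, 301 of them nuclear. Python 3.11.15, numpy 2.4.6, scipy 1.17.1, pandas 2.3.3, pysam 0.24.0, samtools 1.23.1 and matplotlib 3.10.9 were used. TSSs came from GENCODE M21, and sequences from the RefSeq GRCm38.p6 genome, the same build as mm10. On data simulated with the same distance rule and equations, 200 of 200 window assignments and 293 of 293 fragment numbers were recovered. This checks the code and not the deposited values. The members and lists were chosen with earlier results of these data known, so values are descriptions and no test was made. The genes named are the 4 members, any other gene within 500 bp of their peaks, the list genes with a peak (some genes and 1 of the 7 lists are not reported here, though counts over all lists include them), and for each member the 3 promoters of like replicate support nearest in log2 fold. Genes named for GA/CT repeats were chosen after their values were seen. Alternatives were windows of 200 and 1000 bp, summits in place of peaks, protein-coding or RefSeq TSSs, −log10 p of at least 7, −log10 q of at least 2, summits within 100 bp as shared, and each replicate left out. The RefSeq alternative was chosen after seeing the data.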

Additional observations from a re-analysis of the deposited data

How the results depend on the processing

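Windows of 200 and 1000 bp, the summit in place of the peak, and protein-coding TSSs each left 4 genes with a peak, 2 in both replicates and 7 list genes. At a −log10 p of at least 7, or a −log10 q of at least 2, 3 genes and 6 list genes remained and Arpp21 was lost, and with RefSeq TSSs Gria4 was lost. Leaving out each replicate gave 2 to 4 genes and 2 to 7 list genes, with the low values without replicate 1. The same settings gave mean folds of 6.36 to 10.5 at Nptx1 and 5.17 to 5.56 at Cnr1. The mean summit of Nptx1 was 16.5 bp downstream of the TSS (−6 to 39 with each replicate left out) and 83.5 bp with the RefSeq TSS, because the RefSeq start lies further upstream. The Gria4 summit moved from 41 to 665 bp with RefSeq TSSs, and that of Arpp21 from −77 bp to 100 bp with protein-coding TSSs only, as another TSS became the nearest. No paired analysis was possible because the 2 PHF10 replicates form a single group with no second condition. Summits of 17 to 35 fragments, and an IgG background of 1.85 to 2.0 fragments from 1 library, limit the precision of each fold. The intervals leave out the error of the IgG background, and no coverage was used here for genes without a listed peak.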

Other observations

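The GA or CT repeats at Gria4 and Arpp21 were not particular to these genes. Runs of at least 20 bp lay in 37 of the 301 nuclear regions (12.3%), in 19 of the 87 with a peak in both replicates (21.8%), in 16 of the 162 of replicate 1 alone (9.88%) and in 2 of the 52 of replicate 2 alone (3.85%). Among the regions at promoters with the longest runs were those of Zfp710 (164 bp), Stau2 (110 bp), Nfia (75 bp) and Gria4 (73 bp). In windows of a fixed 300 bp, 36 of the 301 regions (12.0%) held such a run, against 450 of 91729 TSSs of protein-coding genes without a peak (0.491%). These windows are centred on the mean summit or the TSS, and of the 4 genes only Gria4 holds a run in its window, since the run of Arpp21 begins 133 bp from the summit. The 24 of 269 regions at protein-coding promoters (8.92%) are the closer comparison. Many TSSs of 1 gene share a window, so these shares are descriptions with no test.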
